A study of Mus musculus with 4 samples.

Results

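The 4 surfactant protein genes *Sftpa1*, *Sftpb*, *Sftpc* and *Sftpd* were followed in fetal mouse lung. They were chosen by gene name from the 45706 genes of the count table, and all 4 had counts in every lung. RNA sequencing had been done on left lung lobes at embryonic day 17 (E17). The lobes came from 2 wild-type embryos (*Myh10*+/+) and 2 embryos homozygous for the L458R missense allele of *Myh10* (Myh10L458R/L458R, written *Myh10*-/- below). *Myh10* encodes the heavy chain of non-muscle myosin IIB, and the recessive allele came from a chemical mutagenesis screen. Every embryo was of the C57BL/6 strain, no treatment was given, and no other engineered allele is named for either genotype. The allele is present in all cells of the embryo, so the lung epithelium and its surroundings both carried it, and the RNA was that of whole lobes with no sorting of cells. Litter and sex are not stated for these lungs.

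Pulmonary surfactant is a film of lipid and protein that lowers surface tension in the air spaces, and alveolar type II (AT2) cells make it before birth. SP-B and SP-C, the hydrophobic proteins encoded by *Sftpb* and *Sftpc*, are cut from larger precursors, packed with lipid into lamellar bodies and released to spread the film. SP-A and SP-D, encoded by *Sftpa1* and *Sftpd*, are collectins, secreted proteins with a collagen-like stalk and a sugar-binding head that bind microbes and also act in surfactant turnover. AT2 cells are the main source of *Sftpc* in the lung, while airway secretory cells also make the other three.

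On the GRCm38 assembly *Sftpa1* (ENSMUSG00000021789) lies on the plus strand of chromosome 14 from 41131782 to 41136452. *Sftpd* (ENSMUSG00000021795) lies on the minus strand of the same chromosome from 41172214 to 41185149, 35762 bp from *Sftpa1*. *Sftpc* (ENSMUSG00000022097) lies elsewhere on chromosome 14, on the minus strand from 70520949 to 70524081. *Sftpb* (ENSMUSG00000056370) lies on the plus strand of chromosome 6 from 72304610 to 72314371. No exon of the 4 genes overlapped an exon of another gene, on either strand. One coding transcript per gene was searched in windows of 75 bases, the read length. No window occurred in a transcript of another gene. Only exact matches were sought, and exons outside that transcript were not searched. For *Sftpa1* it held 851 bp of the 2860 bp of exons, so reads shared with a related gene were not excluded there.

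The coding sequences show the different make of the 4 products. The collectins are marked by unbroken runs of triplets that open with a GGN codon (glycine), the repeat of a collagen stalk. The longest run was 59 triplets in *Sftpd* and 13 in *Sftpa1*, and 0.116% and 0.377% of 21506 coding genes had a run at least as long. *Sftpc* held a run of 6 GTN (valine) codons, a length that 0.0139% of coding genes reached, within the membrane-spanning stretch for which SP-C is known. *Sftpb* was rich in TGT and TGC (cysteine) codons, with 24 among its 354 codons (6.78%), a share that 3.64% of coding genes reached. Stretches of the GENCODE M21 coding transcripts are shown 5′ to 3′ because they set the stalk of the collectins beside the hydrophobic stretch of *Sftpc*, with GGN codons that open a triplet (*Sftpa1*, *Sftpd*) or GTN codons (*Sftpc*) in capitals.
Sftpa1 codons 28 to 57: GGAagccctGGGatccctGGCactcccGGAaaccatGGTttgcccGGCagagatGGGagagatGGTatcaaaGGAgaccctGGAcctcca
Sftpd codons 45 to 74: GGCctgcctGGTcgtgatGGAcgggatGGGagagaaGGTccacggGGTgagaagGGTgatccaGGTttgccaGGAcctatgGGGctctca
Sftpc codons 28 to 51: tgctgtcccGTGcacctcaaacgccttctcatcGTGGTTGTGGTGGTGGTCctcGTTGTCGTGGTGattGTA
In the last of these, 12 of the codons were GTN.

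The depth of each library was the total count on genes, 23156026 and 19116971 for *Myh10*+/+ and 27573824 and 32055306 for *Myh10*-/-. Both *Myh10*-/- libraries were deeper than both *Myh10*+/+ libraries. The missense allele leaves its transcript in place, so the level of *Myh10* checks no label. In CPM (counts scaled to the library total after adjusting it by trimmed-mean normalization) it was 505 and 504 against 539 and 513. *Xist*, the RNA of the inactive X chromosome, was abundant in *Myh10*+/+ lung 1 (3916 CPM) and *Myh10*-/- lung 2 (4457 CPM) and scarce in the other two lungs (1.84 and 4.10 CPM), so each genotype held 1 lung of either pattern.

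Relative to gene length, the 4 genes kept one order in every lung, with *Sftpc* first, then *Sftpb*, *Sftpa1* and *Sftpd*. In TPM (counts divided by the summed exon length of the gene, then scaled to the same sum in each lung), *Sftpc* stood at 21410 ± 710 (SD, n = 2) in *Myh10*+/+ lungs and 16670 ± 2015 in *Myh10*-/- lungs, and it ranked 1 among all genes in each of the 4 lungs. *Sftpb* followed at 1589 ± 48.8 and 1181 ± 4.71 TPM, and *Sftpa1* at 535.5 ± 54.7 and 373.2 ± 25.9 TPM. *Sftpd* was far lower, at 77.0 ± 4.44 TPM in *Myh10*+/+ and 38.0 ± 8.33 TPM in *Myh10*-/- lungs. The spread of any gene did not reach its neighbour in this order. The TPM level of *Sftpa1* depends on the length assumed, since its mean over the 4 lungs was 454.3 with all exons and 1515 with the coding transcript of 851 bp, and the order of the genes was the same with either length.

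Both hydrophobic proteins had lower RNA levels in the *Myh10*-/- lungs, and the difference passed the test for *Sftpb* but not for *Sftpc*. *Sftpb* encodes the precursor of SP-B, which is required to form lamellar bodies and for breathing at birth. Its level after trimmed-mean (TMM) normalization was 820 and 797 CPM in wild-type lungs, against 573 and 588 CPM in *Myh10*-/- lungs. The genotypes were 209 CPM apart at their nearest, and the lungs within each genotype lay close together. The log2 fold change, *Myh10*-/- over *Myh10*+/+, was -0.48 ± 0.070 (SE), with a 95% interval of -0.63 to -0.33 and an adjusted p of 0.00961 by the quasi-likelihood test of edgeR, so that 71.8% of the wild-type level remained. Without *Myh10*+/+ lung 2 the log2 fold change of *Sftpb* was -0.50 with an adjusted p of 0.0633, so the call was lost at an almost equal fold. Without *Myh10*+/+ lung 1 it passed, at -0.46 with an adjusted p of 0.00645.

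*Sftpc* encodes the precursor of SP-C, the surfactant protein most closely tied to AT2 cells. It had the highest count of all genes in both *Myh10*+/+ lungs, where it took 0.575% and 0.561% of the counts, and the second highest in both *Myh10*-/- lungs, with 0.391% and 0.477%. Its level was 5815 and 5630 CPM in *Myh10*+/+ and 3876 and 4750 CPM in *Myh10*-/- lungs. Both *Myh10*-/- lungs lay below both *Myh10*+/+ lungs, but they differed from each other 1.23-fold. The log2 fold change was -0.41 ± 0.142 (interval -0.72 to -0.10), equal to 75.4% of the wild-type level, with an unadjusted p of 0.0137 and an adjusted p of 0.173 by edgeR, which does not pass 0.05. Of all tested genes, 9.02% were lower with an unadjusted p under 0.05.

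The call for *Sftpc* depended on how the spread between lungs was estimated and on which lungs were included. With at least 107205 counts of *Sftpc* in every lung, the counting error was at most 0.305%, far below the 1.23-fold difference between the *Myh10*-/- lungs. The spread that edgeR assumed for a gene of its abundance (the trended biological coefficient of variation) was 12.6% with all genes in the fit and 4.45% when genes of the X, Y and mitochondrial chromosomes were left out, and the adjusted p was 0.0185 in the latter fit at a log2 fold change of -0.41. For *Sftpb* the same spread moved from 7.74% to 4.31%, and for *Sftpa1* and *Sftpd* from 5.39% to 4.24% and from 6.89% to 4.70%, with no change of call. *Sftpc* also passed with no filter on low counts (adjusted p 9.27e-10) and without *Myh10*-/- lung 2 (log2 fold change -0.56, adjusted p 2.71e-06), and its log2 fold change without *Myh10*-/- lung 1 was -0.27 (adjusted p 0.811).

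**Figure D1:**
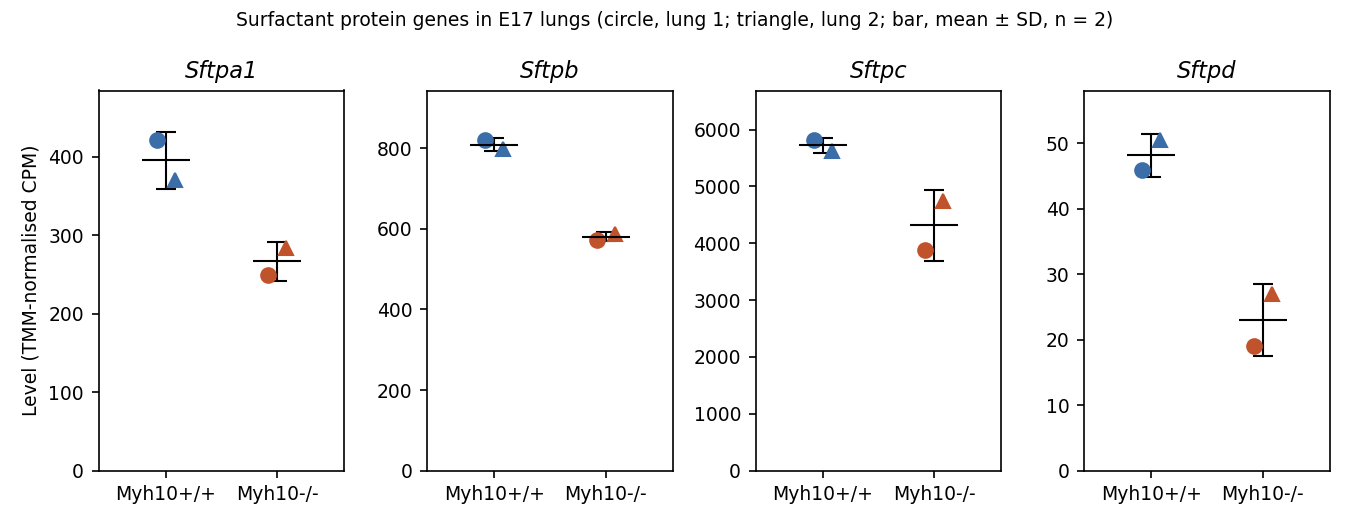
Level of each surfactant protein gene in TMM-normalised CPM (vertical axes, each from 0) in the *Myh10*+/+ and *Myh10*-/- lungs, with lung 1 as a circle, lung 2 as a triangle and the mean ± SD of 2 lungs as black bars. In all 4 panels both *Myh10*-/- lungs lie below both *Myh10*+/+ lungs, and *Myh10*-/- lung 2 lies above *Myh10*-/- lung 1.

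Both collectin genes fell in the *Myh10*-/- lungs, *Sftpd* to 48.0% and *Sftpa1* to 67.4% of the wild-type level. *Sftpa1*, which encodes SP-A, the most abundant protein of mature surfactant, stood at 421.5 and 370.2 CPM in *Myh10*+/+ and 249.5 and 284.2 CPM in *Myh10*-/- lungs. The genotypes were separated by a gap of 86.0 CPM, wider than the distance within either genotype. Its log2 fold change was -0.57 ± 0.072 (interval -0.73 to -0.41), with an adjusted p of 0.00592 by edgeR.

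*Sftpd* encodes SP-D, which binds microbial sugars and also takes part in the uptake and recycling of surfactant. It stood at 45.8 and 50.5 CPM in *Myh10*+/+ lungs and 19.1 and 26.9 CPM in *Myh10*-/- lungs. *Myh10*-/- lung 2 was 1.41-fold above *Myh10*-/- lung 1, the widest spread within a genotype among the 4 genes, and still 18.9 CPM below the lower wild-type lung. The raw counts behind these levels were 1050, 961, 531 and 867, with a counting error of 3.09% to 4.34%, so the spread between the *Myh10*-/- lungs was larger than counting error. The log2 fold change was -1.06 ± 0.127 (interval -1.34 to -0.78), with an adjusted p of 0.00441 by edgeR, and leaving out any 1 lung gave values from -1.33 to -0.83.

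In all, 3 of the 4 genes passed as lower, and 1.34% of the 18763 tested genes did so (1.64% passed in either direction). All 4 genes showed both *Myh10*-/- lungs below both *Myh10*+/+ lungs, as 24.3% of tested genes did. A log2 fold change at or below that of *Sftpc* was found for 5.70% of tested genes, and at or below that of *Sftpd* for 0.570%. The median log2 fold change over all tested genes was 0.0018, while the 4 genes ranged from -1.06 to -0.41. Together the 4 genes took 0.703% and 0.682% of all counts in *Myh10*+/+ lungs and 0.476% and 0.567% in *Myh10*-/- lungs. In RNA from whole lobes, fewer cells that express a gene and less of its RNA per cell cannot be told apart, and this holds for each of these values.

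All 4 genes were lower in *Myh10*-/- lung 1 than in *Myh10*-/- lung 2, with ratios of lung 2 over lung 1 of 1.14 for *Sftpa1*, 1.03 for *Sftpb*, 1.23 for *Sftpc* and 1.41 for *Sftpd*. Between the *Myh10*+/+ lungs the same ratios were 0.878, 0.972, 0.968 and 1.10, so the wild-type lungs shared no direction. *Myh10*-/- lung 1 and *Myh10*+/+ lung 2 were those with little *Xist*, and with lungs of like *Xist* level paired as a block, the log2 fold changes were -0.57, -0.48, -0.42 and -1.07 for *Sftpa1*, *Sftpb*, *Sftpc* and *Sftpd*. In that fit, chosen after the data were seen, the adjusted p of *Sftpc* was 0.0107.

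The proportions of the 4 transcripts to one another were compared as log2 ratios of counts within each lung, which no scaling of the library can alter. Every other member stood higher against *Sftpd* in both *Myh10*-/- lungs than in both *Myh10*+/+ lungs. The ratio of *Sftpc* to *Sftpd* was 6.99 and 6.80 in *Myh10*+/+ and 7.66 and 7.46 in *Myh10*-/- lungs, a difference of 0.67. The ratio of *Sftpb* to *Sftpd* was 4.16 and 3.98 against 4.91 and 4.45, a difference of 0.61. The genotypes overlapped in neither of these ratios, and without *Myh10*-/- lung 1 the second difference was 0.38.

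The ratio of *Sftpa1*, the other collectin, to *Sftpd* was 3.20 and 2.87 in *Myh10*+/+ and 3.71 and 3.40 in *Myh10*-/- lungs, a difference of 0.52. With 2 lungs against 2, the exact two-sided permutation test cannot give a p below 0.333, and each of the 3 ratios to *Sftpd* gave that value (adjusted over 6 ratios, 0.50). Among the other three genes the ratios moved less. They differed by -0.09 for *Sftpa1* over *Sftpb* and by -0.06 for *Sftpb* over *Sftpc*, with overlapping genotypes (exact permutation p 0.667 and 1). *Sftpa1* over *Sftpc* differed by -0.15 with no overlap (exact permutation p 0.333). Leaving out 1 lung moved the differences of *Sftpa1* over *Sftpb* between -0.17 and -0.016 and of *Sftpa1* over *Sftpc* between -0.22 and -0.083.

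Several genes that process, store and recycle surfactant fell too. In counts of list genes here and below, fell and rose mean lower or higher with an adjusted p under 0.05 by edgeR. Of the 14 tested genes of that list, 7 fell (50%, beside 1.34% of all tested genes) and none rose. The median log2 fold change was -0.28, and 12 of the 14 were below 0. *Napsa*, an aspartic protease that cuts the SP-B precursor, stood at 146 and 136 CPM in *Myh10*+/+ and 99.8 and 110.5 CPM in *Myh10*-/- lungs, with no overlap and a log2 fold change of -0.42 (adjusted p 0.00961). *Lamp3*, a membrane protein of lamellar bodies, changed by -0.38 (adjusted p 0.0178), and *Abca3*, the lipid pump of lamellar bodies, by -0.26 (adjusted p 0.0458).

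*Lpcat1*, an enzyme that makes the main surfactant phospholipid, changed by -0.39 on the log2 scale (adjusted p 0.0166). *Slc34a2*, the phosphate carrier of AT2 cells, changed by -0.56 (adjusted p 0.0225). *Rab3d*, a small GTPase of secretory vesicles, changed by -0.35 and *Nedd4l*, a ubiquitin ligase that acts on the SP-C precursor, by -0.27 (adjusted p 0.0407 and 0.0141). Exons of *Abca3*, *Napsa* and *Nedd4l* overlap those of a gene on the opposite strand, which leaves their counts uncertain.

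Of 20 tested transcription factors known from surfactant gene promoters, 2 fell (10%, beside 1.34% of all tested genes), none rose, and the median log2 fold change was -0.03. An unadjusted p under 0.05 was reached by 8 of them in either direction. *Stat3*, which carries cytokine signals, changed by -0.26 (adjusted p 0.033) and *Srebf1*, a regulator of lipid synthesis genes, by -0.30 (adjusted p 0.0293), and exons of both overlap those of an opposite-strand gene, so their counts are uncertain. *Nkx2-1*, the factor that defines lung epithelium and binds surfactant gene promoters, is named here after its values were seen. Its levels of 434 and 455 CPM in wild-type and 455 and 448 CPM in mutant lungs overlapped, with a log2 fold change of 0.02 ± 0.054 (adjusted p 0.881).

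Among the structural relatives of the members, 1 gene passed the test. None of the 10 tested relatives of the collectins passed the test in edgeR, 2 of them had an unadjusted p under 0.05, and their median log2 fold change was 0.07. *Colec12*, a membrane collectin and scavenger receptor, had a log2 fold change of 0.11 (adjusted p 0.240), and *C1qb*, a chain of complement C1q, of -0.08 (adjusted p 0.692). Of 8 tested relatives with a saposin or BRICHOS domain, *Itm2a*, a BRICHOS membrane protein, fell by 0.24 on the log2 scale (adjusted p 0.0306), none rose, and the median was -0.05. *Itm2b*, which had the highest mean level of these relatives, had a log2 fold change of -0.23 (adjusted p 0.102). Over all 52 tested genes of these 4 lists, 10 fell (19.2%) and none rose, beside 1.34% and 0.298% of all tested genes.

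**Figure D2:**
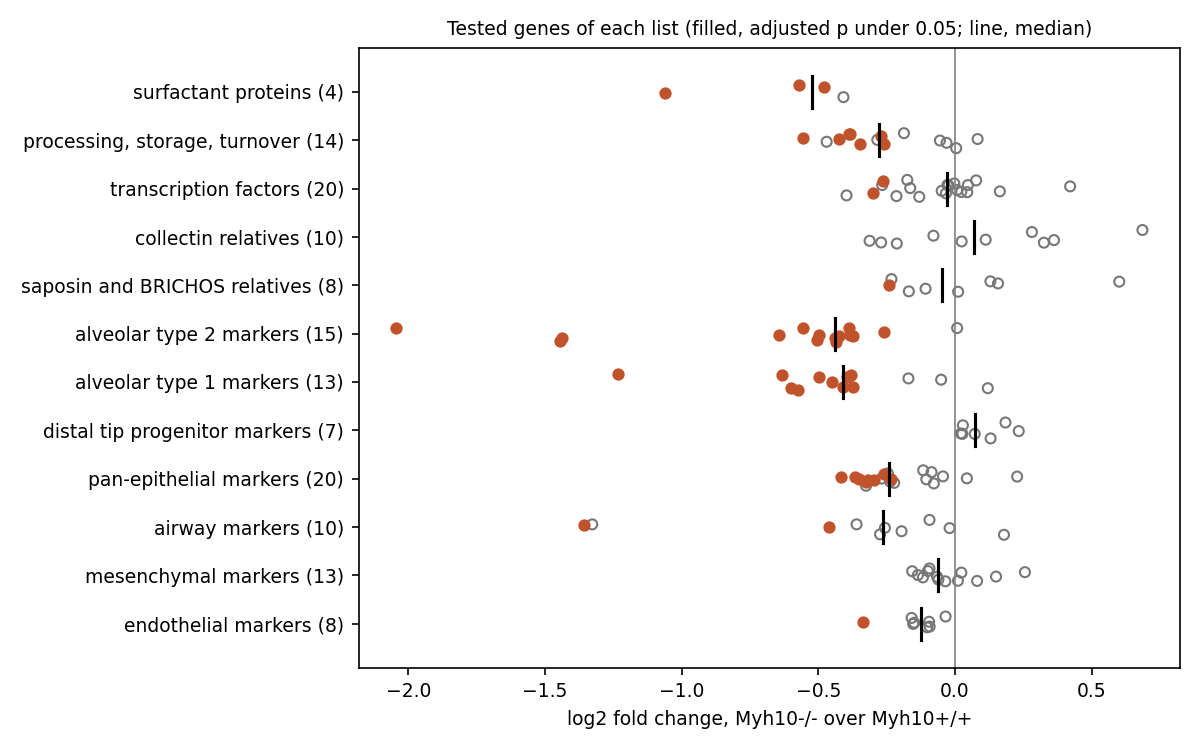
Log2 fold change, *Myh10*-/- over *Myh10*+/+ (horizontal axis), of the surfactant protein genes and of the tested genes of 11 lists, 1 circle per gene, filled where the adjusted p was under 0.05, with the number of tested genes in parentheses and the median as a black line. The surfactant protein genes, 14 of 15 alveolar type 2 markers and 12 of 13 alveolar type 1 markers lie to the left of 0, the 7 tip progenitor markers lie just to its right (0.02 to 0.23), and the transcription factors, the relatives of the collectins and the mesenchymal markers lie on both sides.

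Markers of some cell types in the lobe were lower along with the members, to different degrees, and those of others were not. The list of 15 AT2 markers leaves out the members but shares 5 genes with the processing list. These are *Napsa*, *Lamp3*, *Abca3*, *Lpcat1* and *Slc34a2*, all among the 7 that fell there. Of the 15 AT2 markers, 14 fell (93.3%, beside 1.34% of all tested genes) with log2 fold changes of -2.05 to -0.26. The median of the list was -0.44. Their summed level was 3540 and 3226 CPM in *Myh10*+/+ and 2315 and 2662 CPM in *Myh10*-/- lungs. Of 13 alveolar type I (AT1) markers, genes of the flat cells that line the air sacs, 10 fell (76.9%), with a median of -0.41. Their summed levels were 5458 and 5236 against 3986 and 4520 CPM. In both lists *Myh10*-/- lung 1 was the lowest of the 4 lungs, as it was for each member.

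Of 20 pan-epithelial markers 8 fell (40%, beside 1.34% of all tested genes) and 18 had a log2 fold change below 0. Of all 18763 tested genes, 9281 were below 0. The median of the pan-epithelial list was -0.24, with summed levels of 2351 and 2333 against 1962 and 2038 CPM. None of the 7 markers of distal tip progenitors, the cells from which both alveolar types arise, passed the test in edgeR, 1 had an unadjusted p under 0.05, and their summed level was 400.6 and 399.5 against 425.5 and 422.3 CPM. None of 13 mesenchymal markers passed, 2 had an unadjusted p under 0.05, and their median was -0.06. Of the 10 tested markers of airway secretory and other airway cells, a further source of surfactant proteins, 2 fell (median -0.27), with summed levels of 779.9 and 971.6 against 618.6 and 710.9 CPM.

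Of 8 tested endothelial markers 1 fell (median -0.13), and all 8 had a log2 fold change below 0. Of 8 leukocyte markers 1 fell (median -0.11), namely *Lyz2*, which is also an AT2 marker, and 5 were below 0. Among erythroid markers 2 of 6 fell (median -0.31) and all 6 were below 0. Among mesothelial markers 1 of 4 fell (median -0.04) and 2 were below 0. Among markers of cardiac and striated muscle 5 of 7 fell (median -0.57) and all 7 were below 0. In no list did a marker rise. No marker was at 0 in every lung. The part of these cell type differences in the fall of the members was not tested. The scalings that follow give levels relative to a marker list and do not test it, since fewer cells and less RNA per cell lower such a list alike.

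When each lung was scaled by its summed counts of the pan-epithelial list in place of TMM, the differences were smaller and kept their direction. The log2 fold changes were then -0.34 for *Sftpa1*, -0.25 for *Sftpb*, -0.18 for *Sftpc* and -0.84 for *Sftpd*, with adjusted p of 0.00347, 0.0195, 0.309 and 0.00171 by edgeR. This scaling moved the median of all tested genes to 0.23. A scaling by the summed counts of the AT2 list, added after the data were seen, moved that median to 0.45. Under it *Sftpa1*, *Sftpb* and *Sftpc* stood at -0.12, -0.03 and 0.03 (adjusted p 0.481, 0.881 and 0.910), so that the sign of *Sftpc* turned, and *Sftpd* alone of the 4 still passed, at -0.63 ± 0.165 (adjusted p 0.00239). Relative to the summed AT2 markers, a sum that their most abundant genes dominate, no difference was detected for the other three, with standard errors of 0.155 to 0.220. The larger difference was not particular to *Sftpd*, since under TMM 3 AT2 markers of low level fell further than its -1.06, namely *Chil1* (-2.05), *S100g* (-1.45) and *Lyz1* (-1.44).

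**Figure D3:**
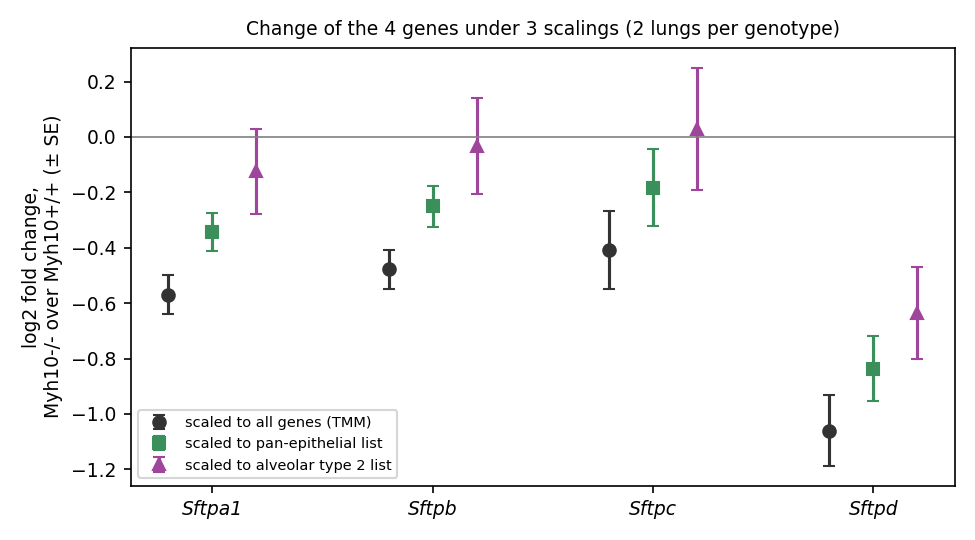
Log2 fold change, *Myh10*-/- over *Myh10*+/+, with its SE (vertical axis) for the 4 surfactant protein genes when the lungs were scaled to all genes by TMM (circles), to the pan-epithelial list (squares) or to the alveolar type 2 list (triangles). *Sftpd* stays below 0 under these 3 scalings, from -1.06 to -0.63, while *Sftpc* goes from -0.41 to 0.03.

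Of 23 tested genes within 100000 bp of a member, 1 passed the test, beside 1.64% of all tested genes, and the median log2 fold change was -0.07. These counts are too small to set the neighbours apart from other genes. That gene was *Lgi3*, which encodes a secreted leucine-rich repeat protein, 6604 bp from *Sftpc* on the opposite strand, named here after its values were seen. It stood at 294 and 269 CPM in *Myh10*+/+ and 215 and 233 CPM in *Myh10*-/- lungs, with a log2 fold change of -0.33 (adjusted p 0.0178).

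*Bmp1*, a procollagen protease gene on the other side of *Sftpc* at 715 bp, had a log2 fold change of 0.12 (adjusted p 0.233). *Mbl1*, the collectin gene of mannose-binding lectin that lies between *Sftpa1* and *Sftpd*, was at 2.27 and 2.63 against 1.76 and 2.14 CPM, with a log2 fold change of -0.31 (adjusted p 0.545). *Mat1a*, 7370 bp from *Sftpa1*, stood at -0.30 (adjusted p 0.115) and *Usp39*, 4307 bp from *Sftpb*, at -0.07 (adjusted p 0.752).

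**Figure D4:**
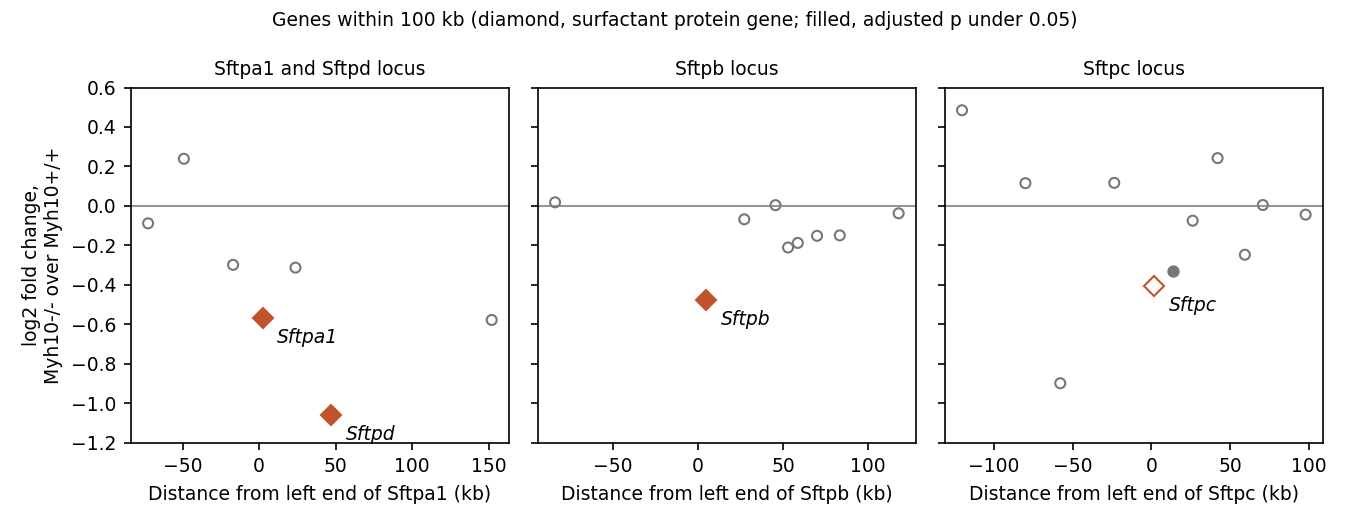
Log2 fold change, *Myh10*-/- over *Myh10*+/+ (vertical axis), of tested genes within 100 kb of a surfactant protein gene against the distance of each gene's midpoint from the left end of the named gene in kilobases. Diamonds are the surfactant protein genes, circles their neighbours, and filled symbols have an adjusted p under 0.05, of which *Lgi3* beside *Sftpc* is the only neighbour.

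Promoter sequence was at hand for *Sftpa1* and *Sftpb*, both of which fell. The first 240 of the 250 bases read before the RefSeq start (GRCm38.p6, plus strand) are shown. Both hold matches to some of the 4 motifs searched for, in capitals.
Sftpa1, chr14:41131538-41131777: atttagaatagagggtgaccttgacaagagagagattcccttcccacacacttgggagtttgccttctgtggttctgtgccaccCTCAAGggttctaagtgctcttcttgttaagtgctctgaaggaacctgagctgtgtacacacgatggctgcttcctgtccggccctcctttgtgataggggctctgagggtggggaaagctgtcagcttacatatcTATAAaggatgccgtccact
Sftpb, chr6:72304360-72304599: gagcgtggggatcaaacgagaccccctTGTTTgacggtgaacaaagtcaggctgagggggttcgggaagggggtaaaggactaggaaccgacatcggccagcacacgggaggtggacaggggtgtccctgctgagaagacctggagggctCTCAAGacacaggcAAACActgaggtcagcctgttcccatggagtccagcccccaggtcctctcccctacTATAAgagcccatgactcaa
The 4 motifs below were searched on both strands, and no match overlapped another. CTCAAG, the core bound by the NKX2-1 protein, occurred once in each, as it did at least once in 12.9% of 32851 promoter windows of this length. TGTTT, part of the forkhead site, occurred at 2 places in *Sftpb*, one of them on the minus strand, and in 45.5% of windows. TATAA, the TATA box core, occurred once in each promoter and in 22.4% of windows, and GATAA, the GATA core, in neither and in 22.0% of windows. These matches describe letters, not binding.

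The genes whose pattern over the 4 lungs was most like that of each member were ranked by the root mean square difference of their centred log2 levels among genes with a mean of at least 50 CPM. For *Sftpa1* they were *Prx*, *Fabp5* and *Clic5*, with differences of 0.0116, 0.0384 and 0.0511. For *Sftpb* they were *Icam1*, *Myh14* and *Fasn* (0.0232, 0.0270 and 0.0284), and for *Sftpc* *Lgals3*, *Gramd2* and *Ptp4a3* (0.0232, 0.0241 and 0.0247). *Sftpd* had no match as close, with *Retnla*, *Hc* and *Cbr2* at 0.130, 0.132 and 0.136. Its own means were 48.15 CPM in *Myh10*+/+ and 23.01 CPM in *Myh10*-/- lungs, so genes at its level were not among those compared. Of these genes, *Prx*, *Icam1*, *Myh14* and *Hc* overlap exons of a gene on the opposite strand, and their counts are uncertain. Likeness over 4 lungs separates genes poorly, since 461 to 590 of about 5440 genes reached a correlation of 0.95 with each member, and it includes the genotype difference itself.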

How the data were processed

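The deposited table holds raw counts of reads per Ensembl gene for each of the 4 lungs. Per the labels and the study's methods, the authors prepared stranded mRNA libraries (single reads of 75 bases), trimmed reads with Reaper, used STAR 2.4.0a for alignment to GRCm38 and counted reads on exons with featureCounts 1.5.1, leaving out reads that fell on several genes or places. Whether counting used strand is not given in the sources used here. Columns were matched to genotypes by their names, which are the sample titles.

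The 18763 genes whose mean count was 5 or more were tested with the edgeR 4.0.16 quasi-likelihood test (R 4.3.3, TMM, Benjamini-Hochberg over all tested genes, threshold 0.05). Levels are TMM-normalised CPM, and lengths for TPM came from GENCODE M21, matched for 98.8% of genes. Ratios between members were compared by exact permutation, with 0.5 added to each count. Total depth was 19116971 to 32055306 counts, and precision is limited by having 2 lungs per genotype. Nothing states that the replicate lungs come from separate litters, so the p-values may not cover the spread between litters. In edgeR they set each difference against a spread estimated from these lungs, in part from other genes of like abundance.

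The surfactant genes, the 15 gene lists and the tests were chosen with earlier results of these data known. Named genes were all members, *Myh10*, the pathway list genes that passed (with fewer than 2, also those with the highest mean) and the 3 most alike genes per member. Named outside this rule were *Xist*, *Nkx2-1*, some neighbours of the members and the AT2 markers *Chil1*, *S100g*, *Lyz1* and *Lyz2*. Other called marker genes are given as counts. Promoters came from RefSeq and were at hand for 2 of the 4 members. Tests were checked on simulated counts. Alternatives were DESeq2 1.42.0 (with and without its prior), other scalings, filters and thresholds, a replicate block, and leaving out each lung. No column was left unmapped.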

Additional observations from a re-analysis of the deposited data

How the results depend on the processing

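Over 17 settings with all 4 lungs, *Sftpd* passed in 17, *Sftpa1* and *Sftpb* in 16 (not with the alveolar type 2 scaling, at -0.12 and -0.031) and *Sftpc* in 3. The 17 include the reported fit and the same fit read at a threshold of 0.1, so they are not all separate fits. *Sftpc* passed with no filter (-0.40), without X, Y and MT genes (-0.41) and with a crossed block (-0.42), and its sign turned with the alveolar type 2 scaling (0.030). DESeq2 with its prior, which shrinks fold changes, gave smaller values of -0.43 for *Sftpd* and -0.27 for *Sftpc*. Leaving out 1 lung gave log2 fold changes of -0.66 to -0.47 for *Sftpa1*, -0.50 to -0.46 for *Sftpb*, -0.56 to -0.27 for *Sftpc* and -1.33 to -0.83 for *Sftpd*. The lone lung of a genotype is then assumed to vary like the other genotype. The log2 ratio of *Sftpb* over *Sftpc* differed by -0.19 to 0.065 between genotypes, positive without *Myh10*-/- lung 2. With the replicate number as a block the log2 fold changes were -0.57, -0.48, -0.42 and -1.08 (*Sftpa1* to *Sftpd*), no member's call changed, and 466 genes were called lower and 244 higher. Nothing states that same-numbered lungs were paired. Their deviations from the genotype mean correlated at -0.30. Lungs of like *Xist* level carry unlike numbers, so this value cannot tell whether same-numbered lungs share a source. A crossed block, added after the data were seen, called 320 lower and 95 higher.

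Of all tested genes, 252 were called lower and 56 higher. The lower count was 139 with pan-epithelial and 34 with alveolar type 2 scaling, 688 with no filter, 167 at a mean of at least 250 counts, 473 at a threshold of 0.1, 108 with counts thinned to the smallest total and 175 to 875 without 1 lung. The higher count was 6672 with pan-epithelial and 9809 with alveolar type 2 scaling, 112 with library totals, 474 with no filter, 90 without chromosomes X, Y and MT, 135 with robust fitting, 85 with DESeq2 (either form), 223 at a threshold of 0.1, 16 when thinned and 31 to 768 without 1 lung. Of the pathway list genes, 10 were lower and 0 higher. The lower count was 2 and 0 with the pan-epithelial and alveolar type 2 scalings, 17 with no filter, 4 when thinned and 4 to 18 without 1 lung, and the higher count was 17 and 23 with those scalings, 1 with no filter, 1 with the replicate block and 0 to 1 without 1 lung. The thinned and alveolar type 2 alternatives were also added after the data were seen. Apart from the fits named, the cause of these shifts was not tested.

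Mean TPM moved with the gene length used. With the longest transcript it was 339.1 for *Sftpa1* and 1310 for *Sftpb*, and with the coding transcript, added after the data were seen, it was 1515 for *Sftpa1*, 1815 for *Sftpb*, 24670 for *Sftpc* and 108.2 for *Sftpd*. When counts were thinned, *Sftpd*, with the fewest counts, stood at -1.05. Its adjusted p by edgeR was then 0.0242, against 0.0044 in the reported fit. *Sftpa1* and *Sftpb* also still passed in the thinned fit (adjusted p 0.0266 and 0.0296), and *Sftpc* did not (0.225). Whether depth or the number of lungs limits these calls more was not tested.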
